A study of Mus musculus with 116 samples.

Results

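The Igkv4 segments are the largest family of mouse kappa light chain V segments. They were taken here as all chromosome 6 genes of the RefSeq list for GRCm38 (mm10) whose symbol starts with Igkv4- and whose type is V segment, which gave 28 of the 102 functional kappa V segments, or of 162 when pseudogenes are counted. Joins were rows of the junction lists whose junction lay within 100 bp of such a segment, and 347757 of 1374899 rows (25.3%) met that rule. The members lay between 1021.8 and 1967.5 kb from Jk1, over a span of 945.7 kb in the middle of the locus. The 5 Igkv4 pseudogenes (Igkv4-83, Igkv4-77, Igkv4-75, Igkv4-65 and Igkv4-56) were left out by the rule, although WT cells joined them too, from 144 joins at Igkv4-65 to 11647 at Igkv4-56.

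The RAG recombinase cuts a V or J segment at its recombination signal sequence (RSS), a heptamer and a nonamer held apart by a spacer. Each cut leaves a coding end, closed as a hairpin that must be reopened, and a blunt signal end that carries the RSS. The Ku70 subunit of the Ku heterodimer binds DNA ends, and DNA ligase IV (Lig4) seals them in classical end joining. A segment that lies inverted relative to Jk1 is joined by inversion, so that the DNA between V and J stays on the chromosome. All 28 Igkv4 segments lay inverted: at least 97.4% of the WT joins of every member read from the plus strand, the orientation of a coding join of an inverted segment.

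The libraries came from v-Abl-transformed mouse pro-B cells, a line that starts light chain rearrangement when the Abl inhibitor STI-571 arrests it in G1. Every group carried the Emu-Bcl2 transgene, an anti-apoptotic gene under an immunoglobulin enhancer, and was held in 3 µM STI-571 for 96 h. Junctions were captured by LAM-HTGTS, which extends a primer out of a known break and sequences the unknown partner. The bait here was the coding end of Jk1.

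There were 14 groups of 3 libraries. Cells without a further deletion (WT) were clones A and B. Ku70-/- cells were clones A1 and B1. Lig4-/- cells were clones A1, B1 and C, with A1 in a further set of 3. Lig4-/-Ku70-/- cells were clones A1_1 and C1. Ku70 had been added back to both double-null clones, and Lig4 to the Lig4-/- clones A1 and C. The shared first letter of the clone names was taken as a common origin, called a lineage below, and each mutant genotype rests on 1 clone per lineage. Nothing in the labels says that replicate libraries came from separate cultures, so p-values measure only the spread between these libraries, which may be technical.

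Depth differed widely. Lists held 3 to 305846 rows and 0 to 73389 Igkv4 joins, after the submitters had brought the libraries to 167151 raw reads in lineage A, 377068 in lineage C and 600000 in lineage B. Distinct Igkv4 junctions were 11.2% to 26.6% of the Igkv4 rows in WT libraries and 39.6% to 60.8% in Ku70-/- libraries. They were told apart by positions, strand and length of overlap or insertion, not by the inserted bases. Separate molecules with the same ends thus count once, so these shares also depend on depth and on the spread of junctions. They do not measure copying alone. Reads without molecular tags can be copies of one molecule. Intervals below therefore cover counting error only.

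The ends that met at Igkv4 can be read from the joins themselves. An RSS was sought in the prey sequences of the joins, with the spacer set at 12 bases. The site taken was the best match to the heptamer CACAGTG and the nonamer ACAAAAACC. Its heptamer had to start with CAC, and at least 11 bases had to match, so the search itself favoured these motifs. Such a site was found at 22 of the 28 members. All 22 carried that heptamer and 18 (81.8%) carried that nonamer. Of the other functional V segments whose RSS could be read in the same way, 56 of 64 (87.5%) carried that heptamer and 11 (17.2%) that nonamer. These 64 include Igkv18-36, whose site matched the nonamer at only 4 bases and is doubtful. The most common Igkv4 form was shared by 12 members. The 4 ends that recur in the results are shown with the last 20 coding bases in lower case, followed by the RSS with its heptamer and nonamer in capitals. All are on chromosome 6 of mm10 and run from the coding side into the RSS, on the minus strand.
Igkv4-50 (chr6:69700739-69700786): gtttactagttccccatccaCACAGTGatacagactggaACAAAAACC
Igkv4-73 (chr6:69197555-69197602): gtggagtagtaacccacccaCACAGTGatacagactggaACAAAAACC
Igkv4-69 (chr6:69283766-69283813): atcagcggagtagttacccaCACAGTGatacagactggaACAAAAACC
Igkv4-78 (chr6:69059662-69059709): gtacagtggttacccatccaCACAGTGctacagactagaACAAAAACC
Igkv4-50 is the member nearest to Jk1 and the most used. The Igkv4-73 stretch is identical in Igkv4-72, Igkv4-71, Igkv4-68 and Igkv4-59, and that of Igkv4-69 is identical in Igkv4-70. Igkv4-78 had the highest share of opposite joins in Ku70-/- clone B1. These identical ends are compared below, because segments with the same bases at the break differed in orientation in clone B1, although not beyond their spread in clone A1.

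The commonest joins of Igkv4-50 show the 3 forms counted below. In each line the Jk1 bait is in lower case and the Igkv4-50 side in capitals.
WT clone B, coding join: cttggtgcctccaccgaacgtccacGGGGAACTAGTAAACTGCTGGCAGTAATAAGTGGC
Ku70-/- clone B1, coding join: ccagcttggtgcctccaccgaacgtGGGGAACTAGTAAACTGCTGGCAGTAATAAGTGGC
Ku70-/- clone B1, opposite join: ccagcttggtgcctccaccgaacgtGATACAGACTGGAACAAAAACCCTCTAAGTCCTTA
The WT join kept the Jk1 coding end whole, lost 5 bp of Igkv4-50 (junction at position 69700772) and made up 1661 reads in 3 libraries, 8.13% of the coding joins of this segment. The Ku70-/- coding join had lost 4 bp of the Jk1 end, shared 1 base between both ends, and made up 56 reads. In the third join the Jk1 coding end ran into the spacer and nonamer of the RSS, that is, into the signal end of Igkv4-50. It made up 26 reads with 2 shared bases. A join of this kind, of a coding end to the signal end of the partner, is known as a hybrid join and is called opposite here because its strand is the reverse of a coding join.

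To ask how often Igkv4 was joined in each genotype, joins were counted per 100000 raw reads. In WT clone A they came to 10304, 8842 and 9414 in the 3 libraries, and in Ku70-/- clone A1 to 672, 924 and 1130. In WT clone B the libraries gave 11574, 11846 and 12232, and in Ku70-/- clone B1 1878, 2285 and 2366. Every Ku70-/- library was below every WT library. Differences were taken on a log2 scale, with 0.5 added to the join count of each library before scaling to 100000 raw reads. The mean difference was −2.94 (−3.42 in lineage A, −2.46 in lineage B). This gave an exact two-sided permutation p of 0.005 within lineages, the smallest that 400 relabellings allow, and 0.00909 after Benjamini-Hochberg adjustment over the 20 tests of this kind. Sequencing runs that held both genotypes gave −3.16 (lineage A, 2 runs) and −2.46 (lineage B, 1 run).

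Lig4-/- cells had almost no Igkv4 joins. Clone A1 gave 5.38, 4.79 and 10.8 per 100000 raw reads, the further A1 set 0, 3.59 and 8.38, clone B1 3.00, 2.33 and 1.33, and clone C 0.53, 0 and 0.53. In the libraries without a join, a count of 0 allows up to 3 joins among 167151 and 377068 raw reads. Against the same WT libraries the difference was −11.42 on the log2 scale (−10.44 in lineage A, −12.40 in lineage B; exact permutation p of 0.005, adjusted 0.00909). This comparison and that of Ku70-/- cells share their WT libraries.

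In Lig4-/-Ku70-/- cells Igkv4 joins rose again, though all 6 libraries stayed below every WT library. Clone A1_1 gave 281, 492 and 632 per 100000 raw reads and clone C1 267, 283 and 461. The difference from Lig4-/- cells was 8.70 on the log2 scale (7.68 in lineage A, 9.72 in lineage C), with an exact permutation p of 0.005 and an adjusted p of 0.00909. When Ku70 was added back to the double-null cells the counts fell again, to 10.2, 13.8 and 7.18 in clone A1_1 and 21.5, 39.3 and 39.0 in clone C1. That difference was −4.38 (−5.43 and −3.34; exact permutation p of 0.005, adjusted 0.00909), and the values within runs were −5.43 (lineage A) and −3.41 (lineage C). Lig4 added back to Lig4-/- cells gave 2299, 2122 and 2680 joins in clone A1 and 2845, 1570 and 1906 in clone C. The difference was 10.40 (8.43 and 12.36; exact permutation p of 0.005, adjusted 0.00909). No sequencing run held both groups of that last comparison. Run and genotype cannot be told apart for it.

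The share of Igkv4 among all V segments differed little next to these counts. Of joins to functional segments, Igkv4 took 39.2%, 30.2% and 31.9% in WT clone A and 39.7%, 29.3% and 32.3% in Ku70-/- clone A1. It took 25.3%, 25.7% and 25.4% in WT clone B and 24.0%, 24.5% and 24.9% in Ku70-/- clone B1. The libraries of lineage A overlapped, and those of lineage B did not, with Ku70-/- lower. The mean difference of −0.499 percentage points did not pass the test (exact permutation p = 0.62, adjusted 0.729). With Ku70 added back to double-null cells the share was 39.5%, 33.3% and 20.7% in clone A1_1 and 19.6%, 24.6% and 27.0% in clone C1. Against 27.5%, 26.0% and 27.5%, and 23.9%, 19.3% and 25.6%, in the double-null libraries, the difference of 2.49 points did not pass either (exact permutation p = 0.43, adjusted 0.538).

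Within the family, use was uneven in both WT clones. Igkv4-50 led with 7.70% ± 0.66 of Igkv4 joins in WT clone A and 9.57% ± 0.06 in WT clone B (SD, n = 3). By the mean of both clones it was followed by Igkv4-61, Igkv4-55, Igkv4-54, Igkv4-57-1, Igkv4-80, Igkv4-81, Igkv4-70, Igkv4-73 and Igkv4-69. These 10 took 59.5% of Igkv4 joins in WT clone A and 58.9% in WT clone B. They took 57.0% in Ku70-/- clone A1 and 59.96% in Ku70-/- clone B1. The 5 least used, named after their values were seen, were Igkv4-90, Igkv4-62, Igkv4-63, Igkv4-92 and Igkv4-91. They took 0.197% in WT clone A and 0.500% in WT clone B. Igkv4-92, the member farthest from Jk1, had at most 0.04% in any WT library.

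Across the 28 members the mean shares of both WT clones were related with a Pearson r of 0.836 and a Spearman rho of 0.745. The mean WT share and the distance to Jk1 were related with r = −0.590 and rho = −0.467. These are descriptions across segments, which share libraries and are not independent replicates. The last relation also held single departures: Igkv4-80 and Igkv4-81, at 1706.0 and 1731.8 kb, were used more than most members nearer to Jk1.

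**Figure D1:**
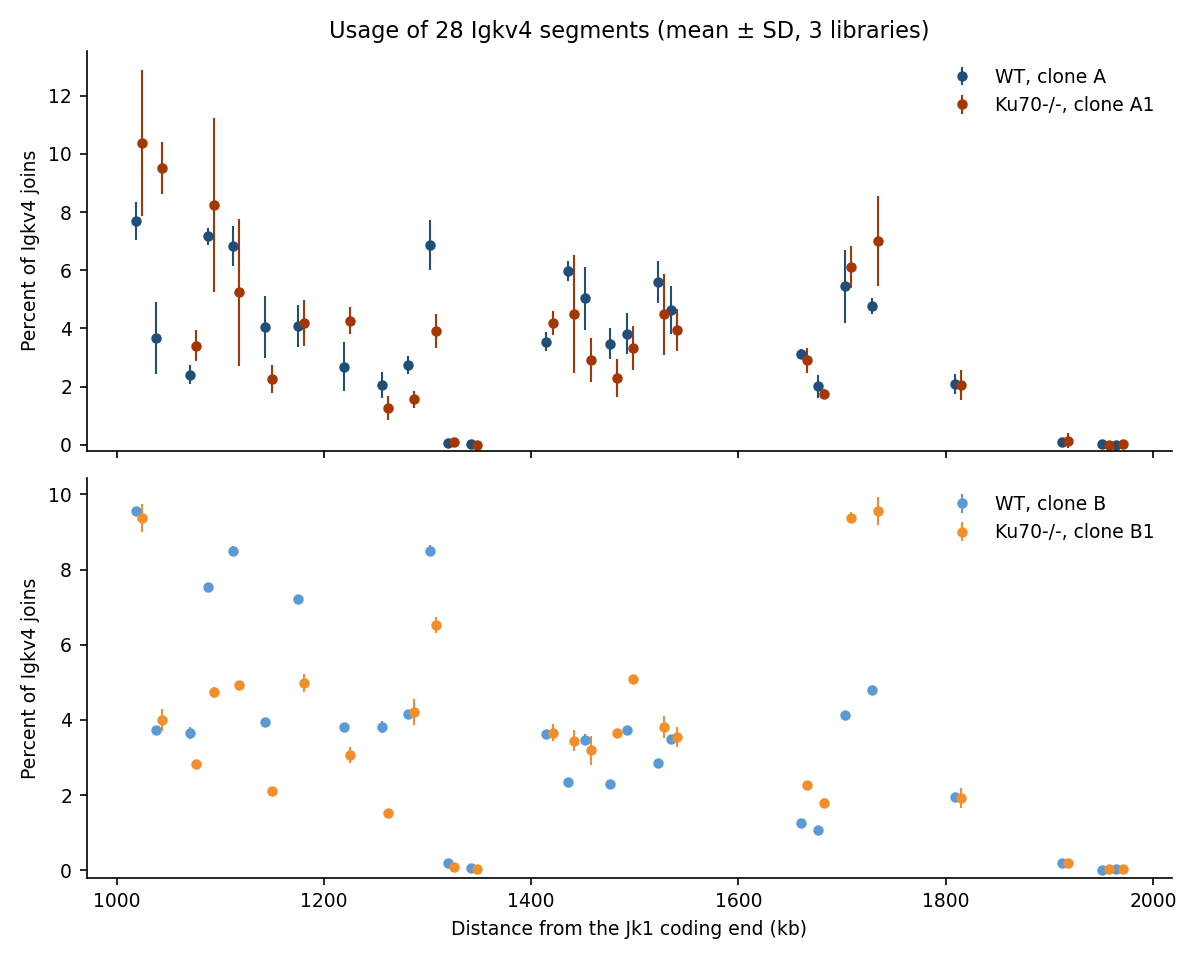
Share of Igkv4 joins taken by each of the 28 members in WT and Ku70-/- cells of lineages A and B. The horizontal axis is the distance from Jk1 in kb, and points with bars are means ± SD of 3 libraries. Igkv4-50, at the left, stands highest in WT clone B at 9.57%, and the 5 least used members lie near 0.

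Use of single members was compared between Ku70-/- and WT cells with limma on the log2 share of all segment joins plus 0.01 percentage points, fitted over 110 V segments. Of all segments tested, 31.8% passed an adjusted p of 0.05 in either direction, 15.5% higher and 16.4% lower. Of the 25 Igkv4 members tested, 7 passed, 3 higher and 4 lower, a share near that background. The median log2 difference was −0.02 over Igkv4 and −0.10 over all segments.

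Igkv4-57 fell in both lineages. Its share of all segment joins was 1.04%, 1.34% and 1.36% in WT clone A and 0.654%, 0.744% and 0.679% in Ku70-/- clone A1. In WT clone B it was 0.915%, 0.953% and 0.975%, and in Ku70-/- clone B1 0.450%, 0.499% and 0.507%. Neither lineage showed any overlap of the groups, and the log2 difference was −0.89 (SE 0.11, limma adjusted p = 9.18e-05). Igkv4-55 (−0.68, limma adjusted p = 0.00825) and Igkv4-61 (−0.63, limma adjusted p = 0.0067) also fell, and both are among the most used members. For Igkv4-55 the groups of lineage A overlapped, with 2.79%, 1.79% and 1.95% in WT clone A and 1.01%, 2.14% and 1.53% in Ku70-/- clone A1. Igkv4-60 had a log2 difference of −1.04 (limma adjusted p = 0.00208). Its coding end in the reads lies 94 bp away from the annotated end, so that most of its opposite joins fall outside the window. With coding joins alone its difference was −0.62 (limma adjusted p = 0.0436).

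Igkv4-81 and Igkv4-80 rose. The share of Igkv4-81 was 1.79%, 1.26% and 1.48% in WT clone A and 2.98%, 1.44% and 2.29% in Ku70-/- clone A1, where the groups overlapped. It was 1.16%, 1.17% and 1.13% in WT clone B and 2.20%, 2.10% and 2.30% in Ku70-/- clone B1, where they did not. The log2 difference was 0.72 (SE 0.16, limma adjusted p = 0.00513), but it was 0.22 with an adjusted p of 0.494 when only coding joins were counted, so coding joins alone did not carry the call. Igkv4-80 went from 1.64%, 1.41% and 2.04% to 2.13%, 1.54% and 2.07% in lineage A, and from 1.00%, 0.992% and 0.993% to 2.15%, 2.15% and 2.17% in lineage B. Its log2 difference was 0.64 (limma adjusted p = 0.0115), made up of 0.17 in lineage A and 1.11 in lineage B.

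Igkv4-51 passed on the strength of lineage A. It took 0.838%, 1.34% and 1.18% in WT clone A and 3.86%, 2.41% and 2.75% in Ku70-/- clone A1, without overlap. In lineage B it took 0.898%, 0.915% and 0.888% against 0.912%, 0.845% and 1.00%, which overlapped. The log2 difference was 0.72 over both (limma adjusted p = 0.0328), against 1.42 (lineage A) and 0.03 (lineage B) taken singly. The call was lost when any single library of lineage A was left out, in limma with the other 11 libraries. It was also lost within runs (0.43, limma adjusted p = 0.113), over distinct junctions (0.43, limma adjusted p = 0.106), in coding joins alone (0.51, limma adjusted p = 0.141) and with the replicate number as a block (0.72, limma adjusted p = 0.0998). Within runs the other 6 members kept their calls. In lineage A alone, of the 7 members Igkv4-57 and Igkv4-51 kept theirs.

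The orientation of the join differed between genotypes in every library. In WT clone A the opposite orientation made up 0.238%, 0.487% and 0.445% of Igkv4 joins, and in WT clone B 0.307%, 0.269% and 0.268%. In Ku70-/- clone A1 it made up 40.3%, 32.9% and 39.1%, and in clone B1 33.7%, 35.9% and 37.3%. Every Ku70-/- library was above every WT library, with at least 32.9% of its Igkv4 joins on the signal-end side of the segment. The mean difference was 36.2 percentage points (37.1 in lineage A, 35.4 in lineage B; exact permutation p of 0.005, adjusted 0.00909). The values within runs were 35.5 (lineage A) and 35.4 (lineage B).

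Cells without both proteins had like shares: 36.7%, 34.4% and 41.5% in clone A1_1 and 30.02%, 30.2% and 29.9% in clone C1. With Ku70 added back, clone C1 gave 30.9%, 41.9% and 34.7% over 81, 148 and 147 joins. Clone A1_1 gave 17.6%, 65.2% and 50.0% over only 17, 23 and 12 joins. The difference of 6.27 points did not pass the test (exact permutation p = 0.42), and within lineage A it ran from −19.03 to 30.8 between runs. Without library 1 of clone A1_1 with Ku70 added back, it was 12.9 points (exact permutation p of 0.005). With Lig4 added back to Lig4-/- cells the share was 2.19%, 2.93% and 3.89% in clone A1 and 0.308%, 0.355% and 0.334% in clone C. All 3 libraries of clone A1 lay above every WT library, and those of clone C lay within the WT range.

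The few joins of Lig4-/- cells can be given only as pooled counts. In clone A1, 7 of 35 Igkv4 joins (20.0%, exact binomial 95% interval 8.44% to 36.9%) were opposite. The further A1 set had 5 of 20 (25.0%, 8.66% to 49.1%) and clone B1 8 of 40 (20.0%, 9.05% to 35.6%). Clone C had 0 of 4, which allows up to 60.2%. The 35 joins of clone A1 held 16 distinct junctions, so these intervals are too narrow where reads are copies.

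**Figure D2:**
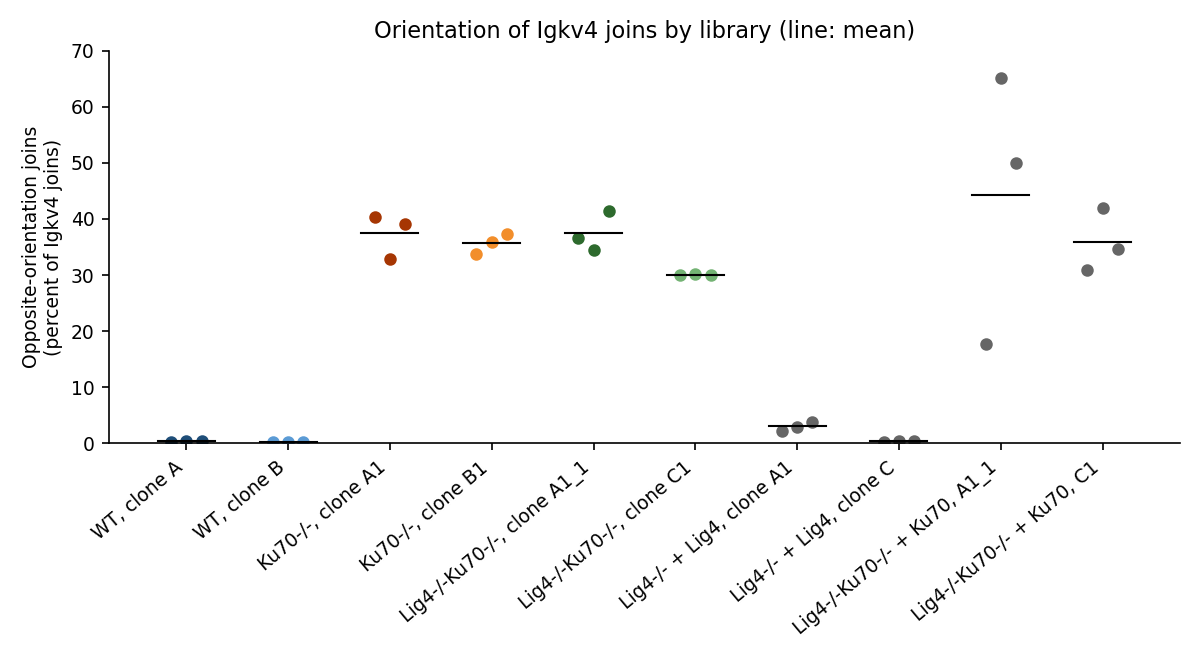
Share of Igkv4 joins in the opposite orientation in each library, by group, in percent. Points are libraries and lines group means of 3. WT libraries lie at 0.238% to 0.487%, and Ku70-/- libraries at 32.9% to 40.3%.

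The same measure was set against the other functional segments of the same libraries. Other inverted segments had opposite shares of 47.5%, 36.05% and 36.1% in Ku70-/- clone A1 and 36.1%, 35.5% and 36.3% in clone B1. Segments that lie in the direction of Jk1 had 21.0%, 9.67% and 11.2%, and 20.6%, 21.1% and 21.0%. Against all other functional segments the gain in Igkv4 was 8.52 points larger (9.65 in lineage A, 7.39 in lineage B; exact permutation p of 0.005, adjusted 0.00909). Against the 37 other inverted segments, a comparison added after the data were seen, it was −1.34 points (−2.50 and −0.18; exact permutation p = 0.485, unadjusted). Without library 3 of Ku70-/- clone A1 that difference was −2.71 points (exact permutation p = 0.05).

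Members of the family differed from one another in orientation. In Ku70-/- clone B1, 22 members had at least 50 joins in every library, leaving out Igkv4-60. Their opposite shares ran from 16.5% at Igkv4-70 to 50.5% at Igkv4-78, with a median of 36.8%. The SD between members was 8.46 points, against a median SD of 2.52 between libraries of the same member. In this clone, segments with the same bases at the break were spread over much of the range. Among the 5 that share the end printed for Igkv4-73, the share was 25.2% ± 6.2 at Igkv4-71, 36.02% ± 3.5 at Igkv4-72, 38.0% ± 2.3 at Igkv4-73, 45.2% ± 1.6 at Igkv4-68 and 49.7% ± 1.8 at Igkv4-59 (SD, n = 3). Igkv4-72 and Igkv4-73 did not differ beyond their spread, and Igkv4-71 and Igkv4-59 did. Igkv4-70 and Igkv4-69, which also share their end with each other, were the lowest, at 16.5% ± 2.9 and 18.95% ± 4.4. Whether coding and opposite reads could be placed equally well among members with identical ends was not tested.

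This order was only partly seen in Ku70-/- clone A1. Over the 20 members with at least 20 joins in every library of both clones, without Igkv4-60, the opposite shares were related with r = 0.394 and rho = 0.343, as a description across segments. Igkv4-69 was low there too (23.5% ± 6.5), whereas Igkv4-70 gave 46.6% ± 19.6 from 42 or 43 joins a library. The spread among the 5 members that share the Igkv4-73 end was not repeated in clone A1. Their shares there were 41.7% ± 17.5 at Igkv4-71, 43.6% ± 4.9 at Igkv4-72, 44.2% ± 8.9 at Igkv4-73, 43.0% ± 5.7 at Igkv4-68 and 54.95% ± 13.7 at Igkv4-59 (SD, n = 3), from 14 to 110 joins a library. These 5 did not differ beyond their spread, and Igkv4-71 was not low. Among the 7 members with at least 50 joins in every library of both clones, Igkv4-81 had the highest opposite share and Igkv4-69 the lowest by the mean of both, and Igkv4-81 reached 58.5% in clone A1.

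**Figure D3:**
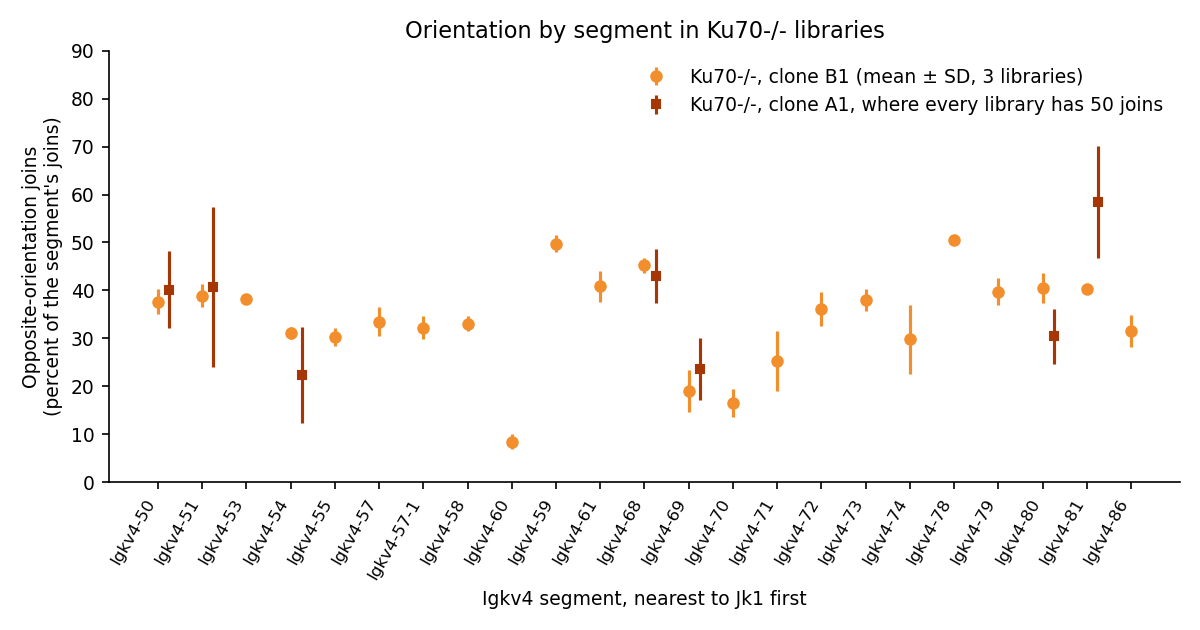
Share of joins in the opposite orientation for single Igkv4 members in Ku70-/- clones B1 and A1, nearest to Jk1 first, as means ± SD of 3 libraries, where every library held 50 joins. In clone B1 Igkv4-70 (16.5%) and Igkv4-69 (18.95%) lie low and Igkv4-78 (50.5%) highest, while the value at Igkv4-60 is cut by the window around its annotated end.

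Loss of bases from the coding end of Igkv4 was small in WT cells. The median distance from the annotated coding end to the junction of coding joins was 3 bp in all 6 WT libraries. It was 22.5, 16 and 16 bp in Ku70-/- clone A1 and 12, 13 and 12 bp in clone B1, above WT in every library. The mean difference was 12.2 bp (15.2 in lineage A, 9.33 in lineage B; exact permutation p of 0.005, adjusted 0.00909), and 13.0 bp within the runs of lineage A. At the members whose RSS was read, 0.42% ± 0.03 of coding joins had lost over 20 bp in WT clone A and 0.46% ± 0.03 in WT clone B. The shares were 48.4% ± 5.9 in Ku70-/- clone A1 and 31.0% ± 0.5 in clone B1.

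The Jk1 side was shortened as well, counted at these members over coding and opposite joins together. It was complete in 47.4% ± 1.9 of these joins in WT clone A and 41.0% ± 0.1 in WT clone B. Complete Jk1 ends made up 0.75% ± 0.19 in Ku70-/- clone A1 and 1.10% ± 0.14 in clone B1. Of the same joins, those in which both ends had lost at most 5 bp made up 84.4% and 84.8% in the WT clones. They made up 5.04% and 6.01% in the Ku70-/- clones.

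The signal-end side of the opposite joins was shortened too. Signal ends are normally joined with little loss. In the few opposite joins of WT cells, the Igkv4 signal end was complete in 43.2% ± 13.7 in clone A and 37.2% ± 4.5 in clone B. In Ku70-/- cells it was complete in 4.65% ± 1.76 in clone A1 and 4.73% ± 0.20 in clone B1. The median loss from the signal end there was 22 to 24 bp in clone A1 and 16 bp in every library of clone B1. The junction still lay within the 28 bp of the RSS in 70.1% ± 2.2 and 79.7% ± 0.8 of these joins.

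**Figure D4:**
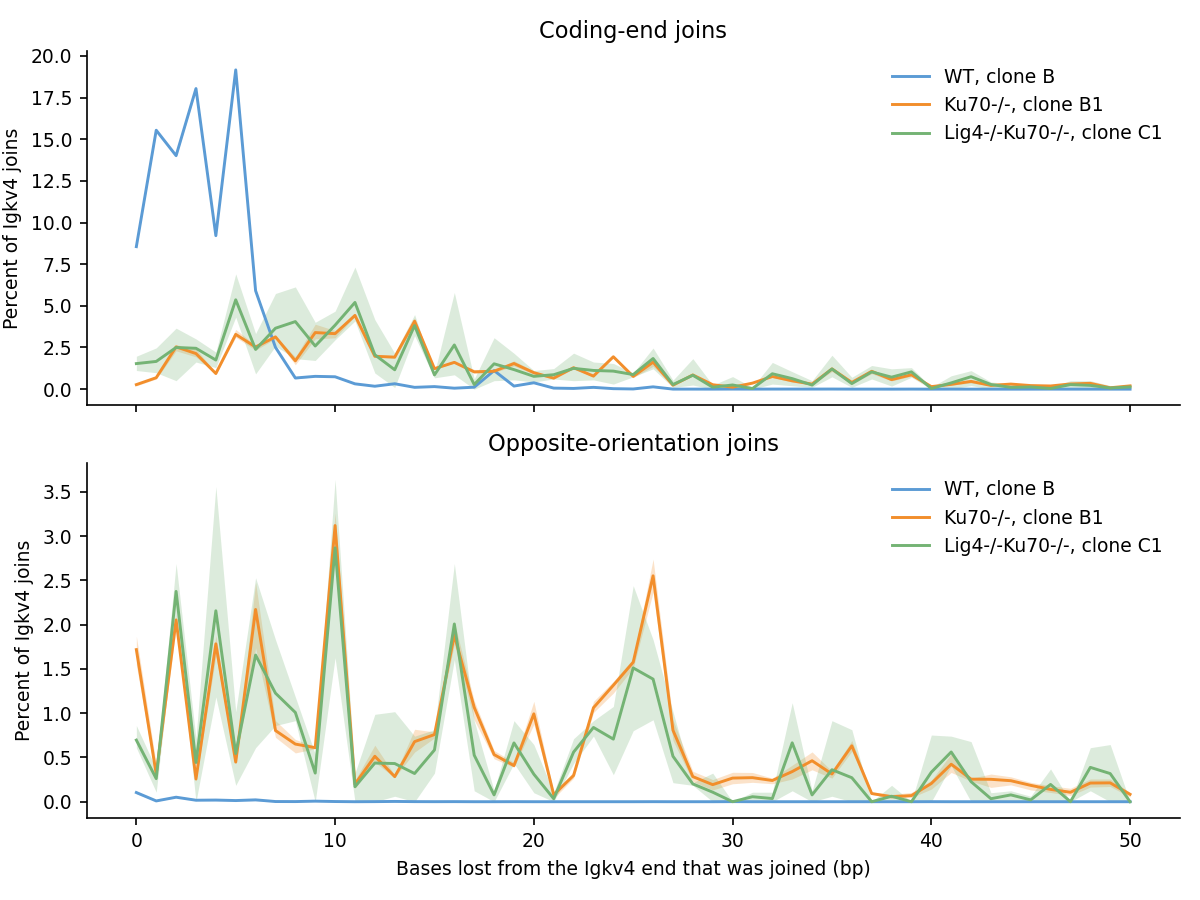
Position of Igkv4 junctions relative to the boundary of coding end and RSS, for coding joins (top) and opposite joins (bottom), as percent of Igkv4 joins against bases lost in bp. Lines are means of 3 libraries and bands their lowest to highest value, in WT clone B, Ku70-/- clone B1 and Lig4-/-Ku70-/- clone C1. WT joins lie near the boundary (median loss 3 bp), and those of both mutant clones spread outwards.

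Lig4-/-Ku70-/- cells had median coding end losses of 13, 14 and 12 bp in clone A1_1 and 10, 12 and 10 bp in clone C1. In lineage A, where Ku70-/- cells allow the comparison, the difference of clone A1_1 from Ku70-/- clone A1 was −5.17 bp. The 3 libraries of one group did not overlap those of the other, and 3 against 3 libraries cannot reach an exact permutation p below 0.1, which was the value found (adjusted 0.167). Adding Ku70 back to the double-null cells gave medians of 16, 15 and 3.5 bp in clone A1_1 and 10.5, 10 and 9 bp in clone C1. The difference of −1.17 bp did not pass the test (exact permutation p = 0.82). With Lig4 added back the median was 3 bp in all 6 libraries, as in WT cells.

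Against the other functional segments, the change in end loss of Igkv4 upon Ku70 loss was 0 bp on average (exact permutation p = 1). The values of the lineages were opposed, 1.67 bp in lineage A and −1.67 bp in lineage B. Without library 1 of Ku70-/- clone A1 the difference was −0.958 bp (exact permutation p = 0.02). Among the 22 members in clone B1 the mean of the library medians had a median of 12.8 bp and reached 16.7 bp at Igkv4-54. The lowest value, 2 bp at Igkv4-57-1, belongs to a member whose coding end could not be placed in the reads. Among the 7 members filled in both clones, Igkv4-68 lost most and Igkv4-81 least. Over the same 20 members the losses of the clones were related with r = 0.638 and rho = 0.665, as a description.

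Bases shared by both ends at the junction are here called microhomology when there are at least 2. Cells without Ku70 had more of it, and fewer insertions, than WT cells. Microhomology was present in 0.708%, 0.602% and 0.801% of Igkv4 joins in WT clone A and 1.27%, 1.29% and 1.21% in WT clone B. It was present in 19.2%, 17.7% and 18.8% in Ku70-/- clone A1 and 17.1%, 17.5% and 17.1% in clone B1. The groups did not overlap, and the mean difference was 16.9 percentage points (17.9 and 16.0; exact permutation p of 0.005, adjusted 0.00909), or 17.6 within the runs of lineage A. Most of the shared stretches were short. Joins sharing 1 base rose from 1.88% and 4.12% in the WT clones to 27.7% and 28.1% in the Ku70-/- clones, and joins sharing 2 bases from 0.490% and 1.05% to 10.9% and 9.63%, as group means. Direct joins with neither shared nor inserted bases made up 36.6% and 51.7% in the WT clones and 52.2% and 52.0% in the Ku70-/- clones.

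Inserted bases were found in 60.3%, 60.5% and 61.5% of Igkv4 joins in WT clone A and 43.1%, 42.7% and 42.9% in WT clone B. They were found in 2.23%, 0.906% and 1.43% in Ku70-/- clone A1 and 2.41%, 2.94% and 2.58% in clone B1. The difference was −49.8 percentage points (−59.3 in lineage A, −40.3 in lineage B; exact permutation p of 0.005, adjusted 0.00909), and −59.8 within the runs of lineage A.

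**Figure D5:**
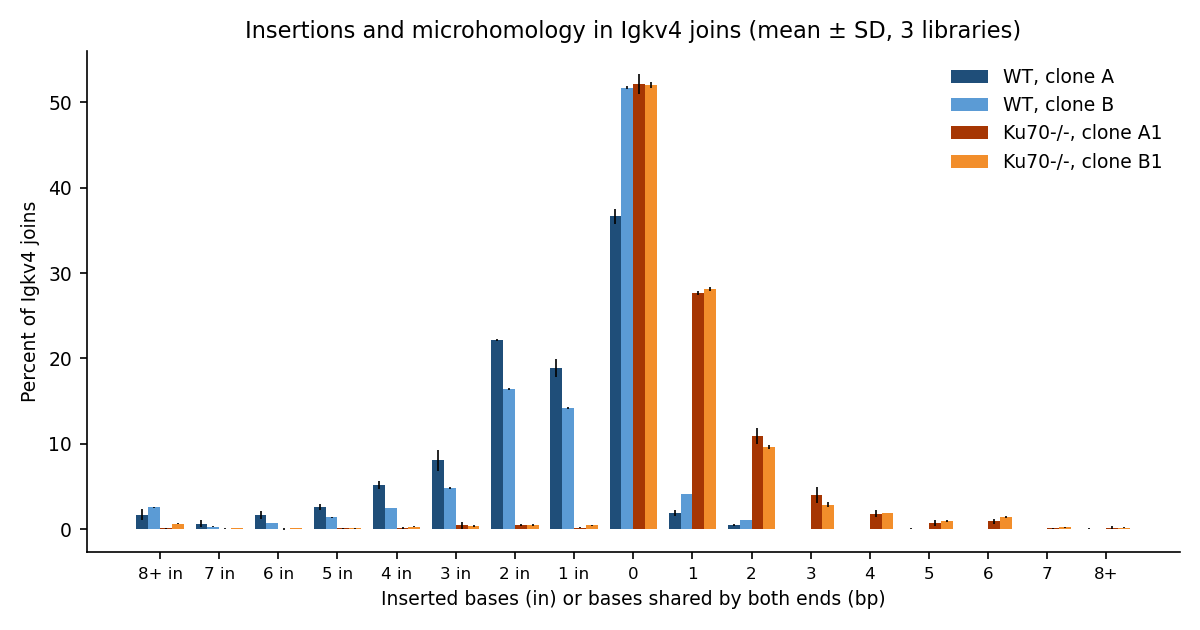
Percent of Igkv4 joins by bases shared (positive) or inserted (negative) at the junction, as means of 3 libraries with SD, in WT and Ku70-/- cells. Joins with 1 shared base stand at 1.88% and 4.12% in WT cells and at 27.7% and 28.1% in Ku70-/- cells.

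The rise in microhomology was 0.875 points larger in Igkv4 than in the other functional segments of the same libraries (1.42 in lineage A, 0.34 in lineage B; exact permutation p of 0.005, adjusted 0.00909). Counting each distinct junction once, this was 0.645 points and no longer passed (exact permutation p = 0.365). In WT clone B the Igkv4 share was 1.21% to 1.29% against 1.93% to 1.99% in the others, and in Ku70-/- clone B1 it was 17.1% to 17.5% against 17.4% to 17.7%. Among the 22 members of clone B1 the share ran from 11.6% at Igkv4-78 to 23.5% at Igkv4-79. The SD between members was 2.31 points, against a median SD of 1.41 between libraries of a member. Among the 7 members filled in both clones Igkv4-80 had the most microhomology and Igkv4-81 the least.

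In Lig4-/-Ku70-/- cells microhomology was present in 21.3%, 18.6% and 24.7% of Igkv4 joins in clone A1_1 and 17.0%, 26.5% and 15.8% in clone C1. Clone A1_1 was 2.96 points above Ku70-/- clone A1, with overlapping libraries and an exact permutation p of 0.3, where 0.1 is the smallest possible. Insertions made up 2.77%, 2.31% and 2.27%, and 2.88%, 3.57% and 4.15%. Adding Ku70 back changed microhomology by −0.636 points (exact permutation p = 0.93) and insertions by 4.59 points (exact permutation p = 0.245), neither of which passed. With Lig4 added back, microhomology was 2.99%, 4.23% and 5.29% in clone A1 and 0.951%, 1.15% and 1.06% in clone C. Insertions were back at 52.6%, 50.1% and 46.4%, and at 57.4%, 52.5% and 52.9%. In Lig4-/- cells the pooled counts of microhomology were 8 of 35 joins in clone A1 and 11 of 20 in the further A1 set. They were 12 of 40 in clone B1 and 2 of 4 in clone C. Insertions, in the same order, were in 8 of 35, 6 of 20, 10 of 40 and 0 of 4. The 20 joins of the further A1 set held 10 distinct junctions. Its 11 joins with microhomology all came from library 3 and its 6 insertions from library 2.

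The few insertions left at complete coding ends in Ku70-/- clone B1 differed in length and letters from those of WT cells. Opening a coding hairpin away from its tip leaves a short overhang that repeats the end on the other strand, and bases added from it are known as P nucleotides. This was looked at after the data were seen, as a description with no test. Insertions next to a complete Jk1 coding end were counted when their first 3 or more bases repeated the complement of that end. Insertions of 1 or 2 bases could therefore never be counted. The median insertion at such ends was 2 bases in every WT library and 3, 4 and 5 bases in Ku70-/- clone B1. The part of length in the contrast below was not tested. In WT clone A such palindromes made up 7.49%, 8.82% and 8.17% of insertions, and in WT clone B 7.63%, 8.03% and 7.47%. In Ku70-/- clone B1 they made up 40 of 50, 50 of 67 and 54 of 67 insertions, or 80.0%, 74.6% and 80.6%. Coding and opposite joins were counted together here. Opposite joins held 17, 23 and 28 of the palindromes in the libraries of clone B1. They held 0, 0 and 2 of those in WT clone A, and 7, 5 and 8 of those in WT clone B. The part of orientation in the contrast was not tested. Palindromes of 7 or more bases made up at most 0.0231% of insertions in a WT library and 26.0%, 20.9% and 28.4% in clone B1.

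An Igkv4-81 join of Ku70-/- clone B1 with 3 reads in 1 library shows such an insertion, in capitals between the whole Jk1 end and Igkv4-81, which had lost 11 bp.
Igkv4-81, junction at position 68990769: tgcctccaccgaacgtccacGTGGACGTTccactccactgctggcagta
Its 9 inserted bases are the reverse complement of the last 9 bases of the Jk1 end beside them. The commonest insertions at complete Jk1 ends in clone B1 were GTG (24.5%), GTGG (11.96%), GT (10.9%) and GTGGAC (8.15%), which all begin the same palindrome. In WT cells a single G led, with 18.7% in clone A and 20.8% in clone B. GT made up 4.66% and 11.4% there. G and GT also begin that palindrome but are too short to be counted by the rule. The complete Jk1 end was rare without Ku70, with 126, 162 and 137 Igkv4 joins in the libraries of clone B1 and 32 in all of clone A1, where 3 of 8 insertions were palindromic. Next to a shortened Jk1 end, 1 of 848 insertions in clone B1 was palindromic.

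At the other end of the join the Igkv4 coding end, where complete, was read in the same way, in coding joins alone. Insertions of under 3 bases could not be counted there either. Pooled over libraries, palindromes made up 53 of 73 insertions (72.6%) in Ku70-/- clone B1 and 2 of 7 (28.6%) in Ku70-/- clone A1. The pooled WT values were 18.7% in clone A, with libraries at 11.1%, 28.3% and 18.5%, and 8.74% in clone B. With each distinct insertion counted once, palindromes made up 12.5% in WT clone A and 11.9% in WT clone B. They then made up 73.2% in Ku70-/- clone B1 and 2 of 4 in Ku70-/- clone A1. In Lig4-/-Ku70-/- cells they made up 52 of 56 insertions (92.9%) in clone C1 and 8 of 10 in clone A1_1. With Lig4 added back the values were 8.58% and 8.80%. The 52 joins of clone C1 came from 20 distinct junctions.

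Use of single members upon Ku70 add-back could not be read for direction. Of the 104 segments tested with limma, 37.5% were called at an adjusted p of 0.05, all lower, and 7 of the 24 Igkv4 members tested were called, all lower. The median log2 difference was −2.44 over all segments and −2.24 over Igkv4, so the scale as a whole was shifted. The libraries with Ku70 added back held 46 to 75 segment joins in clone A1_1 and 436 to 612 in clone C1, against 1839 to 7191 in the double-null libraries. As many as 19 of the 28 members were at 0 in each library of clone A1_1. Igkv4-69, Igkv4-86, Igkv4-53, Igkv4-68 and Igkv4-59 had the largest differences, and in clone A1_1 with Ku70 all were at 0 in all 3 libraries. With the replicate number as a block Igkv4-68 lost its call (limma adjusted p = 0.0569). In the double-null libraries of that clone Igkv4-86 took 0.109%, 0.148% and 0.216% and Igkv4-68 1.41%, 1.24% and 0.769%. In the 3 libraries of clone A1_1 with Ku70, a count of 0 allows a share of up to 4.00% to 6.52% of rows.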

How the data were processed

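Per the submitters' processing notes the reads were aligned to mm10 with Bowtie2, and the labels name the LAM-HTGTS pipeline, with the enzyme blocking step left out. The deposited lists hold one row per read, with positions, strands and read coordinates of bait and prey as plain numbers (no normalized unit), made by the authors. Overlap or insertion was computed from the read coordinates, and recombination signal sequences were read from the prey sequences. The members and lists were chosen with earlier results of these data known.

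Each library gave 1 value per measure. Exact permutation tests, two-sided and within lineages, compared the groups (Python 3.11.15, numpy 2.4.6, pandas 2.3.3, scipy 1.17.1), Benjamini-Hochberg adjusted over 20 tests. Usage was tested with limma 3.58.1 in R 4.3.3 on log2 of the percent of segment joins plus 0.01, for segments at 0.02% or more on average. The fit was first run on simulated data with known changes. In the Ku70-/- design it recovered 10 of 10 4-fold and 10 of 10 2-fold changes and called 2 unchanged segments. In the add-back design it recovered only 5 of 10 4-fold and 1 of 10 2-fold changes and called 7 unchanged segments. Simulated libraries had one small spread for all segments, reads drawn independently and the same change in both lineages. Real libraries could vary more, for example at Igkv4-54 in Ku70-/- clone A1 (4.16%, 1.45% and 2.41%). Real reads can also be copies, so these counts may overstate how well the fit does on the real data. Named members were the 10 most used, the nearest and farthest, up to 10 (Ku70-/-) or 5 (add-back) per direction with the largest called differences, and the extremes among members filled in both Ku70-/- clones. Members with identical ends were named after their values were seen.

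Of 27 replicate pairs, 7 had a chi-square p over 0.05 over Igkv4, but none over all segments (highest p 0.0191). All libraries were kept as separate. The chi-square takes rows as independent, and copied reads lower its p, so it cannot tell separate samples from technical repeats. Lists of Cas9 and ZFN breaks were not used here. Alternatives were other windows, pseudocounts and overlap limits, distinct junctions, coding joins alone, single lineages and left-out libraries.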

Additional observations from a re-analysis of the deposited data

Results flagged for a closer look

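The effect of Ku70 loss on use differed between lineages B and A at 10 of the 25 Igkv4 members tested, by the interaction of genotype and lineage in limma, added after the data were seen (adjusted p at or under 0.05, against 27.3% of all 110 segments). As log2 effects in lineage B minus lineage A, the values were 0.93 at Igkv4-80 (1.11 against 0.17), 0.83 at Igkv4-79, 0.89 at Igkv4-78, 0.71 at Igkv4-73, 1.21 at Igkv4-71 and 0.78 at Igkv4-59. They were −1.08 at Igkv4-58 (−0.38 against 0.70), −0.91 at Igkv4-53, −1.39 at Igkv4-51 (0.03 against 1.42) and −0.49 at Igkv4-50. The positive values lay at members from Igkv4-59 outwards, and the negative ones at the 4 members Igkv4-50, Igkv4-51, Igkv4-53 and Igkv4-58, which are nearer to Jk1. Lineages also differ in sequencing instrument and in depth, and the part of these in the result was not tested.

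The effect of Ku70 loss on end loss, in Igkv4 minus the other functional segments, differed between lineages by 3.33 bp (lineage A minus lineage B, exact permutation p = 0.05, unadjusted, among 19 such differences computed).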

How the results depend on the processing

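The 23 results with a value or a count were recomputed under 113 alternatives other than leaving out libraries, and 105 were taken as unchanged. For values this meant the same direction and the same side of the threshold (for exact tests, an unadjusted p of 0.05). For counts of called members it meant a similar number, whichever members were called. The call lost was the microhomology difference between Igkv4 and other segments, 0.645 points over distinct junctions. The number of Igkv4 members whose use was called in Ku70-/- against WT, 7, was 14 over distinct junctions, 2 in lineage A alone and 18 in lineage B alone. Upon Ku70 add-back the 7 called were 2 in lineage C alone. The microhomology difference upon Ku70 add-back, not called, turned from −0.636 to 0.644 with a minimum of 1 bp, 0.236 in coding joins alone and 0.538 without Igkv4-60 and Igkv4-57-1. The cause was not tested. Among named members, 58 of 276 alternatives lost the call and none reversed.

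Leaving out libraries gave these ranges, with single libraries an alternative added after the data were seen. Without a replicate number the smallest exact p is 0.0556, so no such test could pass. Joins per 100000 raw reads ranged on the log2 scale from −3.05 to −2.77 (Ku70-/- against WT), −11.60 to −11.26 (Lig4-/- against WT), 7.99 to 9.20 (double-null against Lig4-/-), −4.58 to −4.09 (Ku70 add-back) and 10.01 to 10.74 (Lig4 add-back). For Ku70-/- against WT, the Igkv4 share ranged from −1.98 to 0.863, the opposite share from 35.4 to 37.4, end loss from 11.2 to 12.9 bp, microhomology from 16.8 to 17.1 and insertions from −49.9 to −49.5. Igkv4 minus others ranged from 0.727 to 1.01 (microhomology), −0.958 to 0.625 bp (end loss), 6.90 to 10.2 (opposite share) and −3.06 to 0.348 (opposite share, other inverted segments). Upon Ku70 add-back the Igkv4 share ranged from 0.403 to 5.11, the opposite share from −1.23 to 13.9, end loss from −2.63 to 0.833 bp, microhomology from −6.84 to 5.19 and insertions from 1.99 to 6.75. Double-null against Ku70-/- ranged from −6.75 to −3 bp (end loss) and 1.37 to 4.43 (microhomology). Members called ranged from 2 to 8 (Ku70-/-) and 1 to 8 (Ku70 add-back).

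The labels do not say what a replicate number marks. Same-numbered libraries came from the same sequencing run in 5 of 6 pairs of Ku70-/- and WT (not number 1 of lineage A) and in 6 of 6 pairs of the add-back comparison. Over single segments, the deviations of same-numbered libraries correlated from −0.111 to 0.182 and from −0.0851 to 0.0652, so the numbers were not taken to pair the libraries. With the replicate number as a block the differences were the same by construction. The 11 comparisons with an exact permutation p of 0.005 had 0.03125, the smallest possible, and 0.0568 after adjustment in place of 0.00909. Of the 7 members called in each comparison of use, 6 kept their calls, without Igkv4-51 (Ku70-/-) and Igkv4-68 (add-back).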
